A study of Mus musculus with 6 samples.

Results

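The genes described here encode products that platelets use in their mature form, and they were chosen by name: Pf4, Ppbp, Vwf, Mmrn1, Gp5, Gp9, Treml1, Tubb1, Rab27b and Plek. All 10 were measured, each by 1 feature of the array, out of 19938 genes with a feature of their own. Their level was read in bone marrow multipotent progenitors, sorted as lineage-negative cells with Sca-1, c-Kit, CD34 and a receptor written as Flt2 in the series text on their surface. Lxn-/- mice lacked exons 2 to 4 of the gene for latexin (Lxn), which inhibits carboxypeptidases, and WT mice had it intact. All were described as female C57BL/6 mice of 8 to 12 weeks, and each of the 3 Lxn-/- and 3 WT samples pooled about 100000 cells from 10 to 20 mice. The comparison asks which transcripts differ in these progenitors when latexin is missing.

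Megakaryocytes are the large marrow cells that shed platelets. They fill alpha granules with chemokines and adhesive proteins, fill dense granules with small mediators, place a receptor for von Willebrand factor on their surface, and build a ring of microtubules that shapes the platelet. Transcripts of such products can already be found in some stem and multipotent progenitor cells, where they are described as lineage priming. In a pool of sorted cells, fewer cells that carry a transcript and less of it per cell cannot be told apart. The values are log2 intensities, so a difference of 1 is a doubling, and levels of different genes are not compared because their probes differ.

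The sequences before the start of 4 of these genes are shown because Ppbp and Treml1 separated the groups while Pf4, the direct neighbour of Ppbp, and Gp5 did not. Each is the stretch of 250 bases upstream of the annotated start from RefSeq in GRCm38.p6, written 5′ to 3′ along the strand of the gene, in which capitals mark matches to the searched motifs and all other bases are in lower case.
Ppbp, chr5:90768268-90768517, plus strand: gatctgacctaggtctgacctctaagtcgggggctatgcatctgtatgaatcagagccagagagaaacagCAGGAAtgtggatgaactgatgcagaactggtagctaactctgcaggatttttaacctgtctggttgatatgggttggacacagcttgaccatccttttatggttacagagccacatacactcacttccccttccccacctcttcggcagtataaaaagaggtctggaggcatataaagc
Pf4, chr5:90772185-90772434, plus strand: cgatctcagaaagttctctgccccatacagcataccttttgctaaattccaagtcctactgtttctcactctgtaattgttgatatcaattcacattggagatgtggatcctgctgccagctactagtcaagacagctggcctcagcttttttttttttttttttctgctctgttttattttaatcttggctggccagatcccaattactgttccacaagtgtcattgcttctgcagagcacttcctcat
Treml1, chr17:48359666-48359915, plus strand: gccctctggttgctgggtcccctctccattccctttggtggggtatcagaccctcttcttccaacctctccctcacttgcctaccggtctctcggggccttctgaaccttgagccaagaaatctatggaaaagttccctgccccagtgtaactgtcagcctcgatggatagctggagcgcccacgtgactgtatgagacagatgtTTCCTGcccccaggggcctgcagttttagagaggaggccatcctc
Gp5, chr16:30310782-30311031, minus strand: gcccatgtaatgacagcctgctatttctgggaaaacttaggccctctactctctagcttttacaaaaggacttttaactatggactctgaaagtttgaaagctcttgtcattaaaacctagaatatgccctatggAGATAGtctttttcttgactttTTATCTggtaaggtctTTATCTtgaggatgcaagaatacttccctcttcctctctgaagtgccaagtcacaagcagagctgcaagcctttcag

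The motifs were searched on both strands and are 6 letters each: AGATAA or TGATAA or AGATAG or TGATAG for the GATA family, CCGGAA and CAGGAA for the ETS family, and TGTGGT for RUNX factors, families that act in megakaryocytes. Of the 8 genes with an entry in the promoter table, Gp5 and Mmrn1 held a GATA match, against 26.5% of 32851 promoter windows of the same length. Gp5 held 3 GATA matches, at 115, 93 and 77 bases before its start. An ETS match was found before 4 genes (Ppbp, Mmrn1, Treml1 and Tubb1), against 35.1% of all windows, and a RUNX match before Gp9 alone, against 14.0%. Ppbp has its ETS match 180 bases before the start and Treml1 has its own at 45 bases, on the opposite strand. Pf4 and Plek held none of these letters in this window, and the matches describe sequence only.

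All 10 genes had a lower mean in the arrays labelled Lxn-/- than in WT, and none passed the test over all features. The differences ran from -0.49 for Ppbp to -0.08 for Plek, with a median of -0.24, against a median of -0.04 over all 23410 features tested. A lower mean was found in 57.8% of all features. The 10 genes were chosen with earlier results of these data known, so setting them against all features is a description and not a test. Adjusted p-values from limma with Benjamini-Hochberg adjustment over all features ran from 0.340 to 0.771 for the 10 genes, and 0.0% of features were called at 0.05, while 14.3% had an unadjusted p under 0.05 in either direction. Before adjustment 3 of the 10 genes, Ppbp, Treml1 and Rab27b, were lower at a p under 0.05, against 9.23% of all features in that direction. Ppbp, Vwf and Treml1 had all 3 Lxn-/--labelled values below all 3 WT values, a separation that 13% of features showed in that direction.

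The labels were not borne out by the arrays in every respect. Lxn was 8.03, 8.53 and 8.61 in Lxn-/- arrays 1, 2 and 3, against 8.56 to 8.70 in WT, and which exons its probes cover is not known here, so genotype is taken from the labels. The 3 measured Y-linked genes, Eif2s3y, Kdm5d and Uty, read 7.88 to 9.43 in Lxn-/- arrays 1 and 3, against 3.83 to 5.0 in Lxn-/- array 2 and 3.68 to 5.38 in WT. Xist, on the X chromosome, read 6.86 and 5.85 in Lxn-/- arrays 1 and 3, against 13.17 in array 2 and 13.13 to 13.23 in WT. By these genes arrays 1 and 3 read as male, although all mice were described as female. Sex thus goes in part with the genotype label. Of 4 gate genes, Kit, Flt3 and Cd34 had a feature of their own, and Ly6a, which encodes Sca-1, did not. These 3 averaged 12.42 to 12.82 in the arrays labelled Lxn-/- and 12.74 to 12.75 in WT, the lowest value being that of Lxn-/- array 1. Results below are therefore also given without single arrays where that changes them.

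Among the alpha granule products, Ppbp differed by the largest amount. Ppbp encodes the precursor of the neutrophil-attracting chemokine CXCL7. It read 6.84, 6.73 and 6.64 in Lxn-/- arrays 1, 2 and 3, and 7.23, 7.41 and 7.04 in WT arrays 1, 2 and 3. The groups did not overlap, and all 3 Lxn-/--labelled values lay close together below the lowest WT value. The means were 6.74 ± 0.10 in the arrays labelled Lxn-/- and 7.23 ± 0.19 in WT (SD, n = 3 each), a difference of -0.49 (SE 0.11, 95% interval -0.75 to -0.24), or 1.41 times lower. It had a limma p of 0.00188, which became 0.340 after adjustment over all features. Array 2, the Lxn-/--labelled array without Y-linked signal, was as low as the others, and the difference was -0.50 with arrays 1 and 3 left out.

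Pf4 lies next to Ppbp on chromosome 5 and encodes platelet factor 4, the chemokine CXCL4, but its values followed another order. Pf4 read 6.96, 7.52 and 7.72 in Lxn-/- arrays 1, 2 and 3, and 7.48, 7.90 and 7.56 in WT arrays 1, 2 and 3. Lxn-/- array 1 was below every other array, while arrays 2 and 3 lay inside the WT range. The means were 7.40 ± 0.39 in the arrays labelled Lxn-/- and 7.65 ± 0.22 in WT (SD, n = 3 each), with a difference of -0.25 (SE 0.19, 95% interval -0.69 to 0.18, limma adjusted p 0.506). The difference was -0.03 without Lxn-/- array 1, -0.41 without Lxn-/- array 3, -0.12 without WT array 2 and -0.13 without Lxn-/- arrays 1 and 3. In array 3 Pf4 had its highest and Ppbp its lowest value of the Lxn-/--labelled arrays.

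Vwf encodes von Willebrand factor, the adhesive multimer that alpha granules store, and in mice its reporter marks stem cells with a platelet bias. It read 7.46, 7.33 and 7.44 in Lxn-/- arrays 1, 2 and 3, and 7.61, 7.73 and 7.50 in WT arrays 1, 2 and 3. The groups did not overlap, although the highest Lxn-/--labelled value and the lowest WT value were close. The difference was -0.20 (SE 0.09, 95% interval -0.42 to 0.012, limma adjusted p 0.359), on means of 7.41 ± 0.07 in the arrays labelled Lxn-/- and 7.61 ± 0.11 in WT (SD, n = 3 each). Vwf and Mmrn1 are also transcribed in endothelium. The endothelial cadherin gene Cdh5 was 6.88 to 6.99 in the arrays labelled Lxn-/- and 6.89 to 6.97 in WT. Over all 10 measured endothelial markers the mean level was 8.06 to 8.27 in the arrays labelled Lxn-/- and 8.28 to 8.32 in WT, and its part in the Vwf values was not tested.

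Mmrn1 encodes multimerin 1, which binds coagulation factor V in the alpha granule. It read 7.43, 8.19 and 8.56 in Lxn-/- arrays 1, 2 and 3, and 8.05, 8.65 and 8.17 in WT arrays 1, 2 and 3. Its spread within groups was the widest of the 10 genes, with Lxn-/- array 1 far below and array 3 above the WT mean. The difference of -0.23 (SE 0.27, 95% interval -0.83 to 0.37, limma adjusted p 0.654) was 0.09 without Lxn-/- array 1, and so changed sign. It was -0.48 without Lxn-/- array 3, -0.35 without WT array 1, -0.050 without WT array 2 and -0.098 without Lxn-/- arrays 1 and 3.

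**Figure D1:**
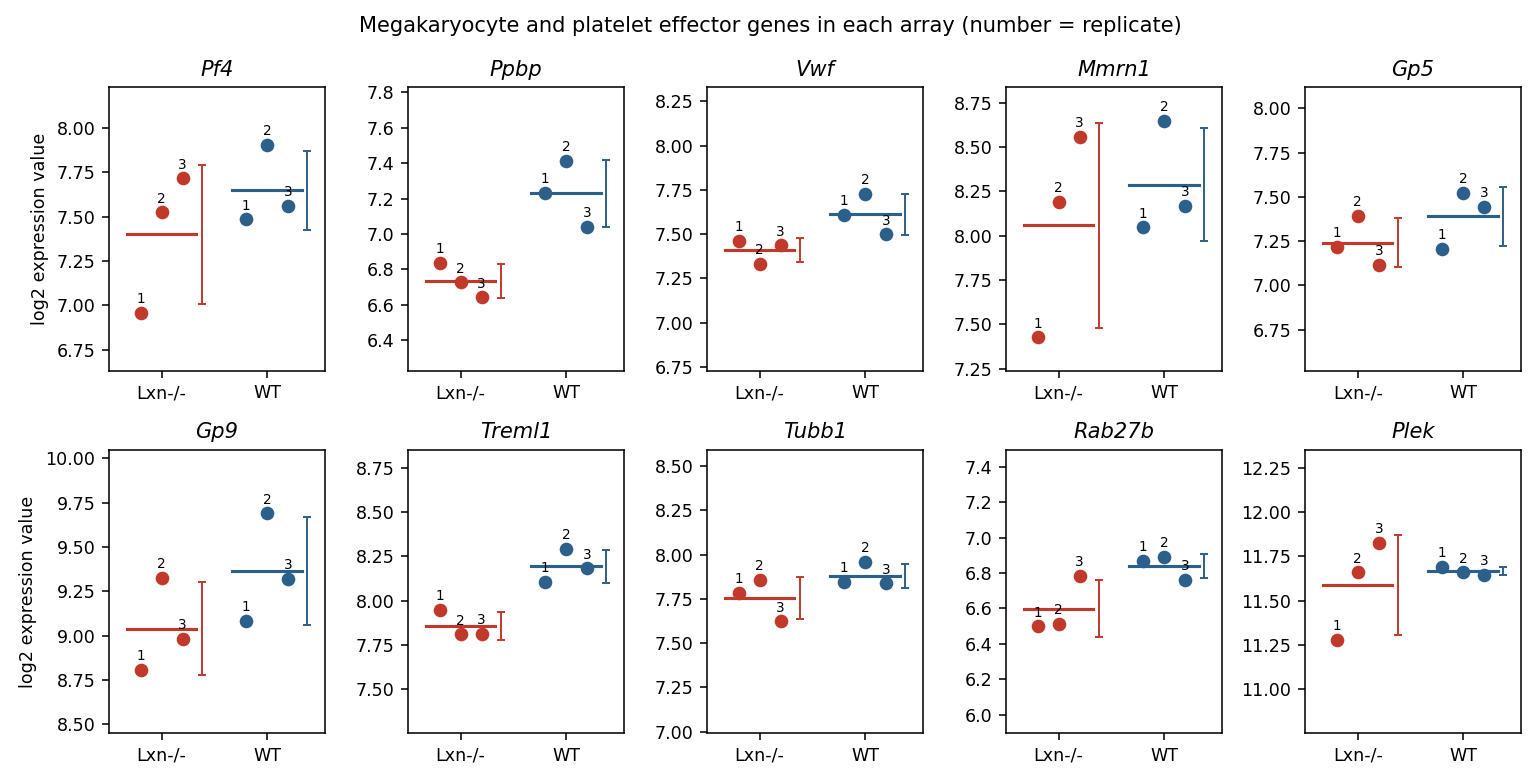
Log2 expression value (y axis) of each gene in every array, grouped as labelled (x axis: Lxn-/-, then WT). Points are arrays numbered by replicate, bars are group means and whiskers SD (n = 3), and every panel spans the same range of log2 units, so that the separation of Ppbp and Treml1 and the low Lxn-/- array 1 of Pf4 (6.96) and Mmrn1 (7.43) can be compared.

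The surface proteins gave 1 gene with separate groups and a pair without. Treml1 encodes TLT-1, a receptor held in alpha granule membranes that reaches the surface of activated platelets. It read 7.95, 7.81 and 7.81 in Lxn-/- arrays 1, 2 and 3, and 8.11, 8.29 and 8.18 in WT arrays 1, 2 and 3. No value overlapped, and the spread within groups was small, with means of 7.86 ± 0.08 in the arrays labelled Lxn-/- and 8.19 ± 0.09 in WT (SD, n = 3 each). The difference was -0.34 (SE 0.09, 95% interval -0.55 to -0.13), or 1.26 times lower, with a limma p of 0.00534 and 0.340 after adjustment. Lxn-/- array 2 was again as low as the rest, and with arrays 1 and 3 left out the difference was -0.39.

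Gp9 and Gp5 encode the glycoproteins IX and V, parts of the complex that binds von Willebrand factor. Gp9 read 8.81, 9.32 and 8.98 in Lxn-/- arrays 1, 2 and 3, and 9.08, 9.69 and 9.32 in WT arrays 1, 2 and 3. Arrays 1 and 3 labelled Lxn-/- lay below all WT arrays, and array 2 was level with WT array 3. The difference of -0.33 (SE 0.17, 95% interval -0.72 to 0.07, limma adjusted p 0.387) was close in size to that of Treml1 but rested on wider groups, and it was -0.17 without WT array 2 and -0.21 without Lxn-/- array 1. With Lxn-/- arrays 1 and 3 left out it was -0.041. The Gp9 difference was larger, at -0.47, without WT array 1 and also without Lxn-/- array 2. Gp5 read 7.22, 7.39 and 7.11 in Lxn-/- arrays 1, 2 and 3, and 7.20, 7.52 and 7.44 in WT arrays 1, 2 and 3. These groups overlapped, since WT array 1 was lower than Lxn-/- arrays 1 and 2, and the difference was -0.15 (SE 0.12, limma adjusted p 0.510). It was -0.082 without WT array 2, -0.085 without Lxn-/- array 3, -0.24 without WT array 1 and 0.00099 without Lxn-/- arrays 1 and 3.

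Of the genes of platelet structure, secretion and signalling, Tubb1 and Plek had the smallest differences of the 10 genes, and Rab27b had a larger one than Mmrn1, Vwf and Gp5. Rab27b encodes a small GTPase that takes part in dense granule secretion. It read 6.50, 6.51 and 6.78 in Lxn-/- arrays 1, 2 and 3, and 6.87, 6.89 and 6.76 in WT arrays 1, 2 and 3. Lxn-/- array 3 alone overlapped WT, by a narrow margin over WT array 3. The difference was -0.24 (SE 0.10, 95% interval -0.48 to -0.01) with a limma p of 0.0444 and an adjusted p of 0.344. It was -0.12 after the tested features were quantile-normalized again and -0.33 without Lxn-/- array 3. Tubb1 encodes the beta-tubulin of the platelet's microtubule ring, and read 7.78, 7.86 and 7.62 in Lxn-/- arrays 1, 2 and 3, and 7.85, 7.96 and 7.84 in WT arrays 1, 2 and 3. Lxn-/- arrays 1 and 3 lay below all WT arrays and array 2 among them, and the difference was -0.13 (SE 0.10, limma adjusted p 0.500). It was -0.061 without Lxn-/- array 3, -0.18 without Lxn-/- array 2 and -0.023 without Lxn-/- arrays 1 and 3.

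Plek encodes pleckstrin, a protein kinase C substrate that is abundant in platelets and is also made by other blood cells. It read 11.28, 11.66 and 11.83 in Lxn-/- arrays 1, 2 and 3, and 11.69, 11.66 and 11.65 in WT arrays 1, 2 and 3. The WT values nearly coincided, with an SD of 0.024, whereas the Lxn-/--labelled values had an SD of 0.28 and lay on both sides of them. The difference of -0.08 (SE 0.13, limma adjusted p 0.771) was 0.08 without Lxn-/- array 1, and so changed sign. It was -0.20 without Lxn-/- array 3.

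**Figure D2:**
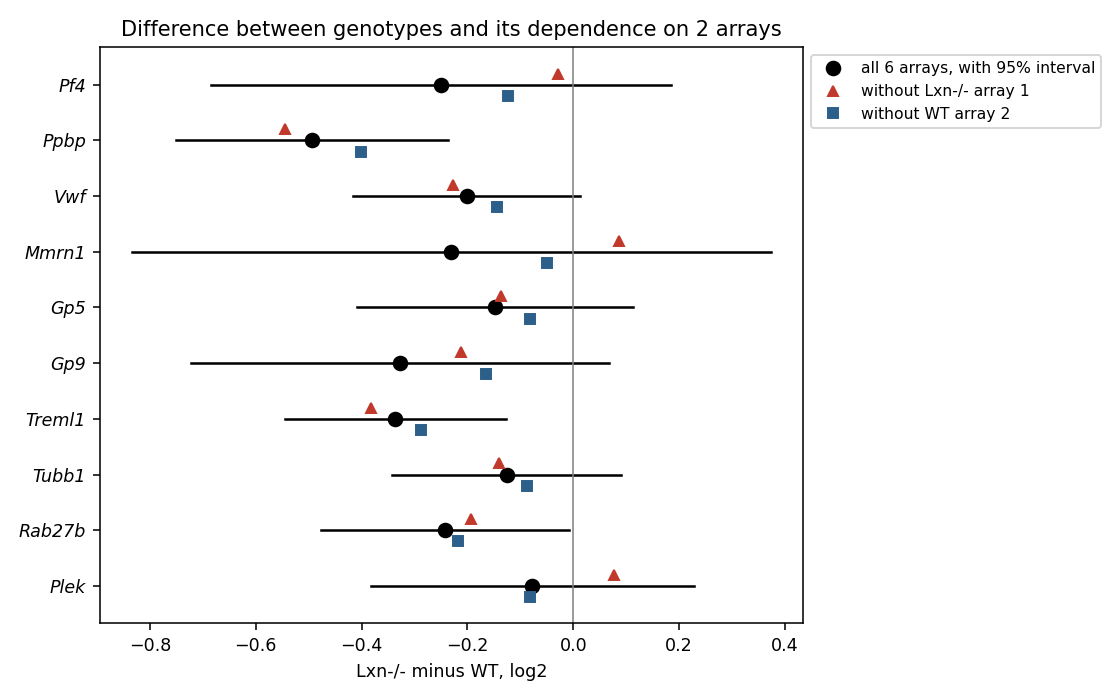
Difference between arrays labelled Lxn-/- and WT (x axis, log2) for each gene (y axis), with the 95% interval from limma over all 6 arrays, and the same difference without Lxn-/- array 1 (triangles) or WT array 2 (squares). Intervals of Ppbp, Treml1 and Rab27b lie below 0, and Mmrn1 and Plek move above 0 without Lxn-/- array 1 (0.09 and 0.08).

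The 10 genes did not share a single order of arrays. Lxn-/- array 1 held the lowest value of 5 genes (Pf4, Mmrn1, Gp9, Rab27b and Plek), array 2 that of Vwf and Treml1, and array 3 that of Ppbp, Gp5 and Tubb1. Over all features the lowest value fell in Lxn-/- arrays 1, 2 and 3 in 17.9%, 19.3% and 24.1% of cases. Relative to the WT mean of each gene, the median of the 10 was -0.37 in Lxn-/- array 1, -0.11 in array 2 and -0.22 in array 3, and -0.06, 0.12 and -0.06 in WT arrays 1, 2 and 3. Array 1 lay below the lowest WT value for 9 of the 10 genes, array 2 for 4 and array 3 for 6, against 32.2%, 37.2% and 40.3% of all features.

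WT array 2 was the highest of the 6 arrays for 9 of the 10 genes, Plek being the exception, and for 30.2% of all features. Without WT array 2 the median difference of the 10 genes was -0.13, with 10 lower means and Ppbp and Treml1 under an unadjusted p of 0.05. Of all features, 54.2% then had lower means and 5.6% were lower at that p. Without Lxn-/- array 1 the median was -0.17, with 8 lower means and the same 2 genes under that p. There 54.8% of all features had lower means and 17.4% were lower at that p, so that 2 of 10 was near the share over all features. With both arrays left out, an alternative chosen after seeing the data, the median was -0.09 with 7 lower means, against 52.2% of all features. Ppbp (-0.45) and Treml1 (-0.33) had lower means in that comparison too, Gp9 was at -0.050, and Pf4 (0.10) and Mmrn1 (0.27) had higher means.

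**Figure D3:**
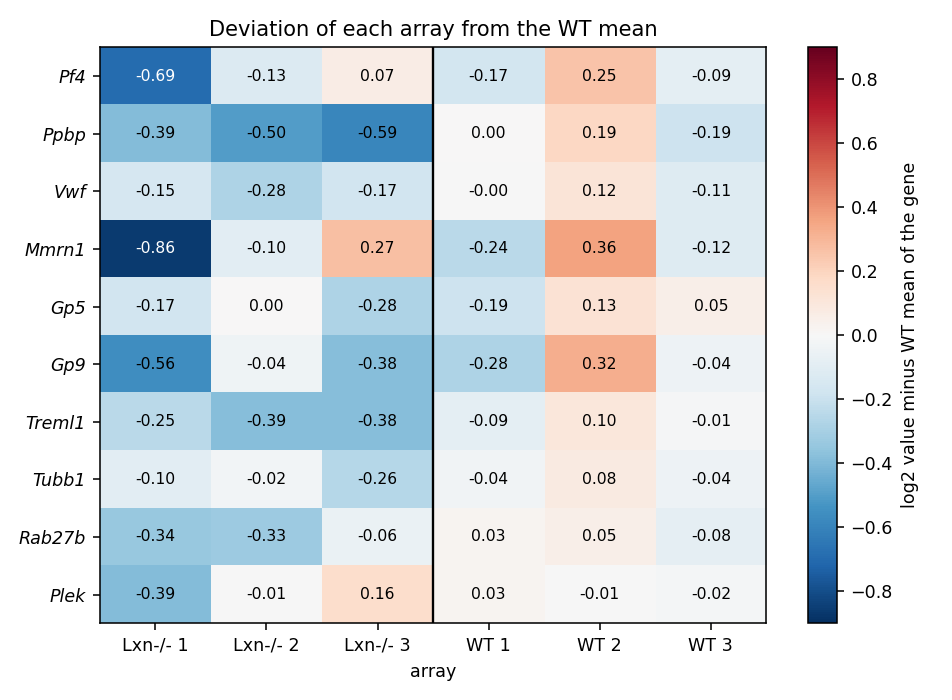
Log2 value of each gene (rows) in each array (columns) minus the gene's WT mean, coloured from blue (below) to red (above). The low values of Lxn-/- array 1 stand out for Mmrn1 and Pf4, those of all 3 Lxn-/- arrays for Ppbp and Treml1, and the high values of WT array 2 in 9 of 10 rows.

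Brightness of the features moved with the difference between groups. Over all tested features, those in the 5 dimmest deciles by mean value had median differences of -0.15 to -0.11, and those in the 4 brightest deciles had 0.07 to 0.09. Of the 10 genes, 5 lay in deciles 3 to 5 (Rab27b, Ppbp, Gp5, Vwf and Pf4), where all features were lower by a median of -0.12 to -0.15. Gp5 at -0.15 was thus close to the median of features as bright as itself. Ppbp at -0.49 lay below the median of -0.15 in its decile, as did Treml1 at -0.34 against -0.01 and Gp9 at -0.33 against 0.07. After quantile normalization of the tested features across the arrays, the differences were -0.37 for Ppbp, -0.32 for Treml1, -0.41 for Gp9 and -0.04 for Gp5. All 10 means were still lower then, against 52.9% of all features. Centring each array on its median moved the median of all features to 0.02 and that of the 10 genes to -0.18. The 10 means were again lower, against 46.3% of all features.

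**Figure D4:**
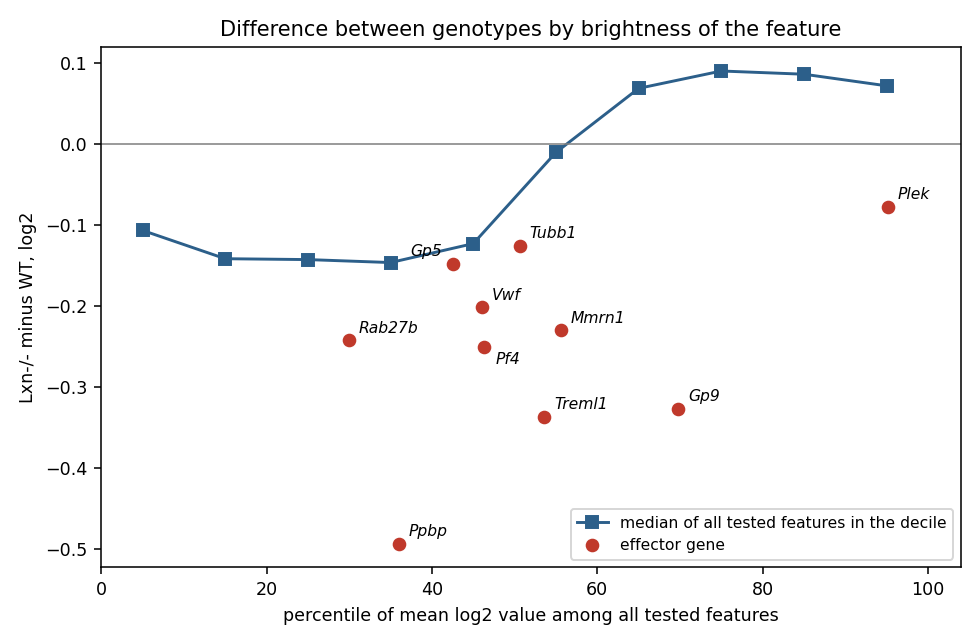
Difference between arrays labelled Lxn-/- and WT (y axis, log2) against the percentile of mean log2 value among all tested features (x axis), with effector genes as circles and the median of all features in each decile as squares. All features run from -0.15 to 0.09 along the axis, Gp5 lies nearest to the median of its decile, and Ppbp, Gp9 and Treml1 lie farthest below theirs.

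The wider set of platelet genes did not show the same direction throughout. It lists 105 other genes by role, also chosen with earlier results of these data known, of which 97 had a feature of their own. Of these, 59 had a lower and 38 a higher mean in the arrays labelled Lxn-/-, a share of 60.8% lower against 57.8% of all features, with a median of -0.06. None passed after adjustment, and before it 11 were lower and 0 higher at a p under 0.05, where all features had 9.23% and 5.06%. Without Lxn-/- array 1, 45 of the 97 had lower means, against 54.8% of all features, and the median was 0.014. At that p 4 were then lower and 2 higher, where all features had 17.4% and 6.31%. Without WT array 2, 57 had lower means and 1 was lower at that p, against 54.2% and 5.6% of all features. After quantile normalization of the arrays, 69 of the 97 had lower means, against 52.9% of all features. At that p 14 were then lower and 2 higher, where 4.05% of all features were lower. Among features above the median level, 46 of 78 had lower means, against 30.7% of all features there.

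Among other platelet receptors, 14 of 18 measured genes had lower means, where 57.8% of all features did, with a median of -0.09. Itga2b, the alpha chain of the fibrinogen receptor and an early megakaryocyte marker, read 8.09, 8.27 and 8.44 in Lxn-/- arrays 1, 2 and 3, and 8.53, 8.76 and 8.44 in WT arrays 1, 2 and 3. Its groups met at Lxn-/- array 3 and WT array 3, and the difference was -0.31 (SE 0.12). P2rx1, an ATP-gated channel of platelets, had separate groups, as did 13% of all features in that direction. It read 7.82 to 8.65 in the arrays labelled Lxn-/- and 8.73 to 9.09 in WT, with a difference of -0.52 (SE 0.21). Clec1b, the podoplanin receptor, and Itga2, a collagen receptor chain, were at -0.23 (SE 0.11) and -0.32 (SE 0.19). None of these 4 passed in limma.

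Other granule cargo was split, with 7 lower and 7 higher means among 14 genes. Thbs1, which encodes the granule glycoprotein thrombospondin 1, read 8.20, 11.34 and 8.69 in Lxn-/- arrays 1, 2 and 3, and 11.47, 10.70 and 11.41 in WT arrays 1, 2 and 3. Its low arrays were the pair with Y-linked signal. Among the Lxn-/--labelled arrays Gp5, Gp9 and Tubb1 were likewise highest in array 2, by smaller amounts. Igf1, a growth factor, had a difference of -0.38 (SE 0.13) and Sparc, a matrix glycoprotein, -0.23 (SE 0.11), while F13a1, the A subunit of coagulation factor XIII, was at 0.42 (SE 0.22). None passed in limma.

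Granule formation and secretion genes had 11 lower and 7 higher means of 18. Slc35d3, needed for dense granules in mice, was 8.46, 10.01 and 9.36 in Lxn-/- arrays 1, 2 and 3, and 9.98 to 10.14 in WT. Sytl4, a Rab27 effector gene, was at -0.51 (SE 0.17), whereas Rab27a, the close relative of Rab27b, was at 0.15 (SE 0.09) and Vipas39, a partner in alpha granule formation, at 0.19 (SE 0.09). The values of Rab27b and Rab27a thus pointed in opposite directions, neither passing after adjustment. Their features also differ in brightness, and all features had a median of -0.14 in the decile of Rab27b and 0.07 in that of Rab27a.

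Cytoskeletal genes were nearly even, with 7 lower and 8 higher means of 15, and signalling genes had 12 lower and 6 higher of 18. Tpm4, a tropomyosin of platelets, was at 0.41 (SE 0.19) and Tuba8, an alpha-tubulin gene, at -0.29 (SE 0.16). Pdlim1, an actin-associated adaptor, was at -0.15 (SE 0.09), and Myct1, listed here without a known cytoskeletal role, at -0.39 (SE 0.17). Of the signalling genes, Gucy1a1, a subunit of the nitric oxide receptor, was at -0.37 (SE 0.15), Tbxas1, thromboxane synthase, at -0.33 (SE 0.20), Plcb2, a phospholipase, at -0.21 (SE 0.16) and the adaptor gene Grap2 at 0.24 (SE 0.11). None of these passed in limma.

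The transcription factors that drive megakaryocyte genes had 8 lower and 6 higher means of 14, or 57.1% lower against 57.8% of all features. Before adjustment 4 were lower at a limma p under 0.05, against 9.23% of all features in that direction. Gata1 read 7.35 to 7.57 in the arrays labelled Lxn-/- and 7.67 to 8.08 in WT. Its cofactor gene Zfpm1 read 9.54 to 9.98 in the arrays labelled Lxn-/- and 10.09 to 10.47 in WT. Neither overlapped, a separation that 13% of all features showed in that direction. The differences of Gata1 and Zfpm1 were -0.35 (SE 0.13) and -0.43 (SE 0.14). Gata2 and Gfi1b were at -0.51 (SE 0.20) and -0.83 (SE 0.32), with Lxn-/- array 1 lowest for both. Nfe2, a late megakaryocyte regulator, was at -0.19 (SE 0.13) and Fli1, an ETS factor, at 0.02 (SE 0.09). All had limma adjusted p-values of at least 0.340. With Lxn-/- array 2 left out, Thbs1 (-2.74, adjusted p 3.9e-05), Gfi1b (-1.27, adjusted p 0.00152), Slc35d3 (-1.18, adjusted p 0.0359) and Tpm4 (0.66, adjusted p 0.0390) passed in limma, where 0.619% of features did, and none of the 10 effector genes passed (smallest adjusted p 0.250). That fit sets only Lxn-/- arrays 1 and 3, the pair with Y-linked signal, against WT. Genotype label and sex cannot be told apart there.

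**Figure D5:**
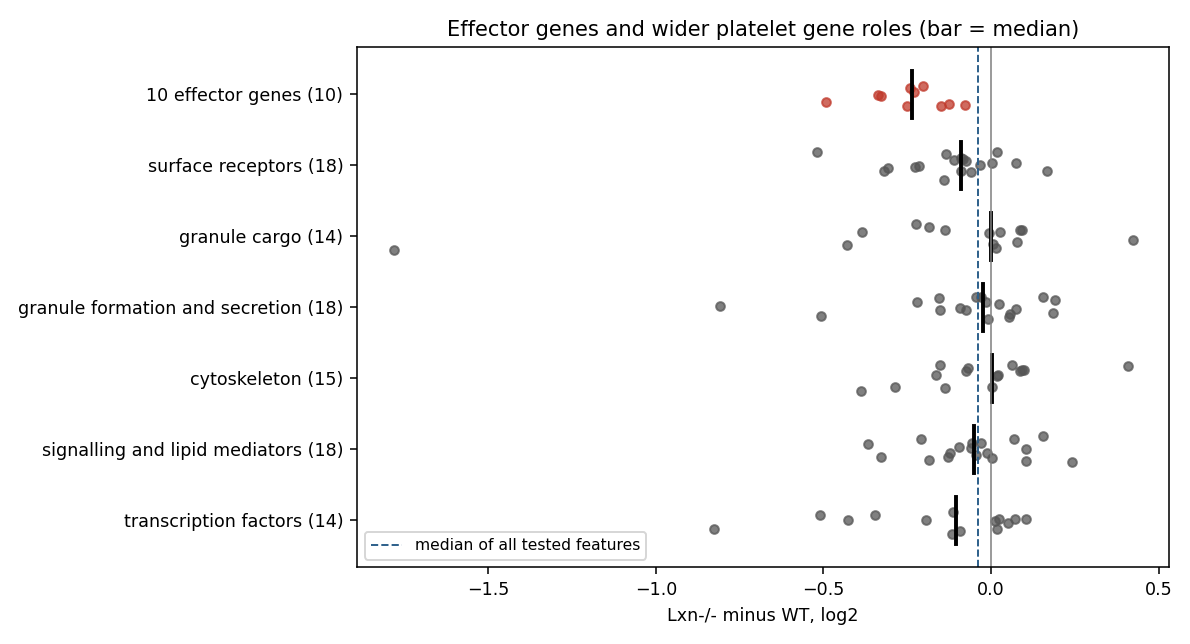
Difference between arrays labelled Lxn-/- and WT (x axis, log2) for the 10 effector genes and for the 97 other platelet genes by role (y axis, number of genes in brackets), with bars at the medians and a dashed line at the median of all tested features (-0.04). The effector genes all lie below 0 with a median of -0.24, and the other roles lie on both sides with medians from -0.10 to 0.0036.

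Markers of neighbouring lineages were read in the same arrays. All 9 measured of 12 erythroid markers had lower means, where 57.8% of all features did, and their average level was 7.99 to 8.34 in the arrays labelled Lxn-/- and 8.44 to 8.99 in WT, the highest being WT array 2. All 8 mast cell and basophil markers also had lower means, averaging 7.41 to 8.05 in the arrays labelled Lxn-/- and 8.17 to 8.36 in WT, the lowest being Lxn-/- array 1. Long-term stem cell markers were lower in 9 of 10, averaging 7.87 to 8.28 in the arrays labelled Lxn-/- and 8.22 to 8.46 in WT. Neutrophil markers were lower in 2 of 7, averaging 10.80 to 11.17 in the arrays labelled Lxn-/- and 10.69 to 11.24 in WT. Of the measured markers, macrophage genes were lower in 5 of 7, B cell genes in 3 of 5 and T cell genes in 1 of 4. The T cell genes averaged 7.08 to 7.50 in the arrays labelled Lxn-/- and 7.14 to 7.31 in WT, the highest being Lxn-/- array 1. The values have no detection calls, so none of these cell types can be said to be absent, and their part in the platelet gene values was not tested.

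The genes whose values over the 6 arrays lay nearest to the mean course of the 10 were Ppfibp2, Tgfbr2, Abcc3, Ttc28 and Cela3a. Their centred values differed from that course by a root mean square of 0.023 to 0.036, and their Pearson r with it was 0.976 to 0.993. Of the 16969 genes searched, 302 had an r above 0.9, or 1.78%. These correlations describe 6 arrays whose groups and array-wide shifts are shared by every gene.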

How the data were processed

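Total RNA of 6 pools (100 ng each, per the labels' protocols) was probed on Affymetrix MoGene 1.0 ST arrays. The authors deposited log2 values, normalized by RMA per the series text (RMA and Partek 6.0 per the submitters' processing notes). The log2 scale was read from their range, while its settings and the genome build are not stated there. RMA equalises the arrays, so a change in total RNA per cell is not visible.

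Of 35557 features, 23410 with a gene symbol were tested, 21789 of them with 1 symbol, updated through Entrez identifiers. Where a gene has several features, the brightest on average stands for it. Groups come from the sample titles. The test used limma 3.58.1 under R 4.3.3 (lmFit and eBayes, two-sided p-values), and p-values were adjusted by Benjamini-Hochberg over the whole set of 23410 features. An exact test of 3 against 3 arrays cannot go below 0.1. In simulated arrays with these means and spreads (23410 features), 27.5% of 200 features changed 1.5-fold were recovered and 82.0% of those changed 2-fold. The simulated noise was independent between features, without the array-wide shifts of the real arrays. These shares therefore check the method and do not give the power of this comparison. Pools are separate samples, and 6 arrays limit every value.

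Same-numbered arrays did not deviate together (correlations of 0.08, -0.01 and -0.01), so the numbers were not taken as pairs. Alternatives were a replicate block, each array left out, Lxn-/- arrays 1 and 3 left out, quantile normalization, median centring, bright features only, trended robust eBayes, array weights, all rows and the mean of a gene's features. Leaving out Lxn-/- array 1 with WT array 2 was added after seeing the data. Quantile normalization and median centring were applied to the deposited values of the tested features alone. All 10 genes are named. From each role of the wider list the 4 with the largest moderated statistics are named, and Nfe2, Fli1 and other core genes always where measured. The members and lists were chosen with earlier results of these data known. Promoter windows come from RefSeq (GRCm38.p6), which matched 8 of the 10 genes (not Vwf or Rab27b). Figures were drawn with matplotlib 3.10.9.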

Additional observations from a re-analysis of the deposited data

How the results depend on the processing

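Across all alternatives Ppbp stayed between -0.59 and -0.37, Treml1 between -0.39 and -0.28, and no effector gene passed the adjusted threshold (adjusted p for Ppbp 0.104 to 0.644, for Treml1 0.106 to 0.644). The number of features with an adjusted p under 0.05 was 0 with all arrays (3346 at an unadjusted p under 0.05), 0 to 145 with 1 array left out, 1 with the replicate block and 3 without Lxn-/- arrays 1 and 3. The block is balanced over the groups, so it cannot change the 10 differences, and the smallest limma adjusted p among the 10 genes was 0.300 with it. Nor can trended robust eBayes, all rows, bright features and, with 1 feature per gene, the mean of a gene's features change them. The unadjusted count was 1628 to 5541 with 1 array left out, 1812 after quantile normalization, 1356 among bright features (fewer are tested) and 5614 with array weights. Of the effector genes 5 were among the bright features, and all 5 had lower means, against 30.7% of all bright features. The median of the 10 genes was -0.11 without Lxn-/- arrays 1 and 3 and -0.086 without Lxn-/- array 1 and WT array 2. The wider list's median changed sign, at -0.080 to 0.014 with 1 array left out, 0.0080 with array weights, 0.027 without Lxn-/- arrays 1 and 3, and 0.028 without Lxn-/- array 1 and WT array 2. That median was -0.082 after quantile normalization, -0.0036 after median centring and -0.039 among bright features. Mmrn1 and Plek also changed sign: Mmrn1 was -0.48 to 0.086 and Plek -0.20 to 0.077 with 1 array left out, 0.055 and 0.021 with array weights, and 0.27 and 0.074 without Lxn-/- array 1 and WT array 2. Pf4 was 0.10 in that last setting and Gp5 0.00099 without Lxn-/- arrays 1 and 3, where the lone Lxn-/- array is assumed to vary like WT. The causes were not tested. The number of arrays limits the precision. Brightness moved with the difference over all features, as given above, and its part in these changes was not tested.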

Other observations

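The chemokine genes around Ppbp and Pf4 on chromosome 5 had lower means, by differing amounts, except for Cxcl2 with a difference of 0.36. In gene order, Cxcl5 before Ppbp had a difference of -0.05, and Cxcl3, Cxcl15 and Cxcl1 after Pf4 had -0.11, -0.28 and -0.18. Features of Cxcl5, Cxcl3, Cxcl15 and Cxcl1 lie in the 5 dimmest deciles, where all features had median differences of -0.15 to -0.11. Cxcl2, which encodes a neutrophil chemokine made on stress and infection, was 9.44, 8.28 and 9.57 in Lxn-/- arrays 1, 2 and 3, and 8.60, 9.0 and 8.60 in WT arrays 1, 2 and 3. The Lxn-/--labelled arrays with high Cxcl2 were those with Y-linked signal, while Ppbp was low in all 3. These neighbours were looked at after the values of Ppbp and Pf4 were seen, and the differences between them were not tested.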
